A study of Mus musculus with 6 samples.

Results

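Ephrins and Eph receptors were followed in the caudal artery, the main artery of the tail, through the probe sets whose single annotated gene was Efna1, Efna5, Efnb1, Efnb2, Epha3, Epha4, Ephb1, Ephb2, Ephb3 or Ephb4. These 10 genes had 23 of the 45037 probe sets on the array, and 9 of the genes had at least 1. No probe set had Ephb2 as its only gene symbol in the platform annotation used here, and Ephb2 was not analysed here. The arteries came from mice aged 4 weeks (postnatal day 28) in 2 groups of 3 RNA pools each. Notch3+/+ pools, with the receptor gene intact, held 4, 3 and 3 mice in replicates 1 to 3, and every Notch3-/- pool, with Notch3 disrupted, held 4 mice. No treatment is recorded for either group, and the labels give neither the strain and sex of the mice nor the design of the disrupted allele. The question was whether loss of Notch3, a Notch receptor of arterial smooth muscle, came with a difference in these guidance genes, with the arterial ligand gene Efnb2 and the venous receptor gene Ephb4 read apart.

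Eph receptors form the largest family of receptor tyrosine kinases, and their ligands, the ephrins, stay attached to the surface of the neighbouring cell. Ephrin-A proteins are held by a lipid anchor and mainly bind EphA receptors, while ephrin-B proteins span the membrane and mainly bind EphB receptors, with EphA4 binding both classes. A contact signals both ways, forward into the cell with the receptor and in reverse into the cell with the ephrin. In developing vessels ephrin-B2 marks arteries and EphB4 marks veins, ephrin-B2 is also made by arterial smooth muscle and pericytes, and Notch signalling in endothelium is known to promote Efnb2 expression.

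Promoter letters are shown for the arterial and venous pair, and for the other 2 members whose window held the core sequence bound by RBPJ, the DNA-binding partner of Notch. The windows are the 250 bases before the annotated start, from the RefSeq promoter table of mouse build GRCm38.p6, read in the direction of the gene. They lie at chr8:8661243-8661492 on the minus strand for Efnb2, at chr5:137349859-137350108 on the plus strand for Ephb4, at chrX:99135811-99136060 on the plus strand for Efnb1 and at chr1:77515089-77515338 on the minus strand for Epha4. Capitals mark each match to TGGGAA, searched on both strands.
Efnb2: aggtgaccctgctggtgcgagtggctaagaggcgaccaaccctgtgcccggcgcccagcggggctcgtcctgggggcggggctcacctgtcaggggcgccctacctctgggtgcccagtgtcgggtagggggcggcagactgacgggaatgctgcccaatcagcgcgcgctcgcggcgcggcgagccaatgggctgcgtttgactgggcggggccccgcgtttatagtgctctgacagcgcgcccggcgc
Ephb4: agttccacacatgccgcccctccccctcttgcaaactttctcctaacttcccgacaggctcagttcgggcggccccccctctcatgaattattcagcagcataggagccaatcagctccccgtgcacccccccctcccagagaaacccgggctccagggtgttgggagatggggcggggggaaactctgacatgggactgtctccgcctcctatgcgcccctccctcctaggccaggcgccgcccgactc
Efnb1: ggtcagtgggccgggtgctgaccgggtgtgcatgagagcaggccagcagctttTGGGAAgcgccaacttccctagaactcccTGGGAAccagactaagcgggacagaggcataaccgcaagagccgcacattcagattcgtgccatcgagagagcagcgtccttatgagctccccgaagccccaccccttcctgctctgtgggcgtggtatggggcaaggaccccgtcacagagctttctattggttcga
Epha4: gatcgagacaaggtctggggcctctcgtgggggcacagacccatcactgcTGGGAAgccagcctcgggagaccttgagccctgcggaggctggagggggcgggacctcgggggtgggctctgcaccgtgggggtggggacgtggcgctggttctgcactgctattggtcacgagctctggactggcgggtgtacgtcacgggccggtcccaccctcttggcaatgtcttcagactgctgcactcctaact
Efnb1 held TGGGAA at 197 and 168 bases before its start, Epha4 held it at 200 bases, and the Efnb2 and Ephb4 windows did not contain these letters. All 10 members matched the table, with 11 windows, of which 2 held TGGGAA, against 21.6% of 32851 promoter windows of this length. CACGTG, an E-box that Hes and Hey repressors can bind, was in 0 of the 11 member windows and in 6.02% of all windows. A match is a run of letters and not a measured binding site.

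Expression values are log2 values per probe set from RMA, a method that corrects background, equalises the arrays and summarises the short probes of a set. The tests covered the 27027 probe sets whose mean over the arrays reached the 40th percentile, 3.83 on this scale. Across probe sets the 6 arrays correlated at 0.990 to 0.996, and Notch3-/- replicate 2 stood apart on the first principal component (39.5, against -17.1 to 5.85 for the others). Changes without it are given for several members. Notch3 itself matched the labels, since its brighter probe set read 9.94, 9.95 and 10.09 in Notch3+/+ pools and 6.51, 6.44 and 5.87 in Notch3-/- pools. The tissue label was matched by the smooth muscle genes Acta2, Tagln and Myh11, whose mean levels over the 6 pools were 13.2, 12.9 and 12.0. The labels call the pools biological replicates. The p-values weigh a genotype difference against the spread between these pools, which the fit draws in part from all tested probe sets. The spread between single mice was not measured.

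No ephrin or Eph receptor gene passed the test between the genotypes. Of the 23 member probe sets, 19 from 8 genes were above the level filter, and 0 of these had an adjusted p under 0.05 in limma, against 0.252% of all tested probe sets. By their brightest probe set 0 of the 8 genes passed in limma, against 0.322% of all tested genes. At an unadjusted p under 0.05 the member count was also 0, against 11.4% of all tested probe sets. In 1 of the 19 the values of the genotypes were fully separate, against 16.2% of all tested probe sets. Changes, given as Notch3-/- minus Notch3+/+, ran from -0.33 to 0.29 on the log2 scale, with 10 above and 9 below 0 (47.3% of all tested probe sets were above). Their median was 0.03 and their median size 0.14, beside -0.01 and 0.10 over all 27027 probe sets. The 95% interval of the change lay within 2-fold in all 19 and within 1.5-fold in 16, on a scale that can compress changes of dim ones. With 1 pool left out the interval of Efnb2 probe set 1449548_at passed 2-fold in 5 of 6 fits, and that of no other tested probe set did.

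**Figure D1:**
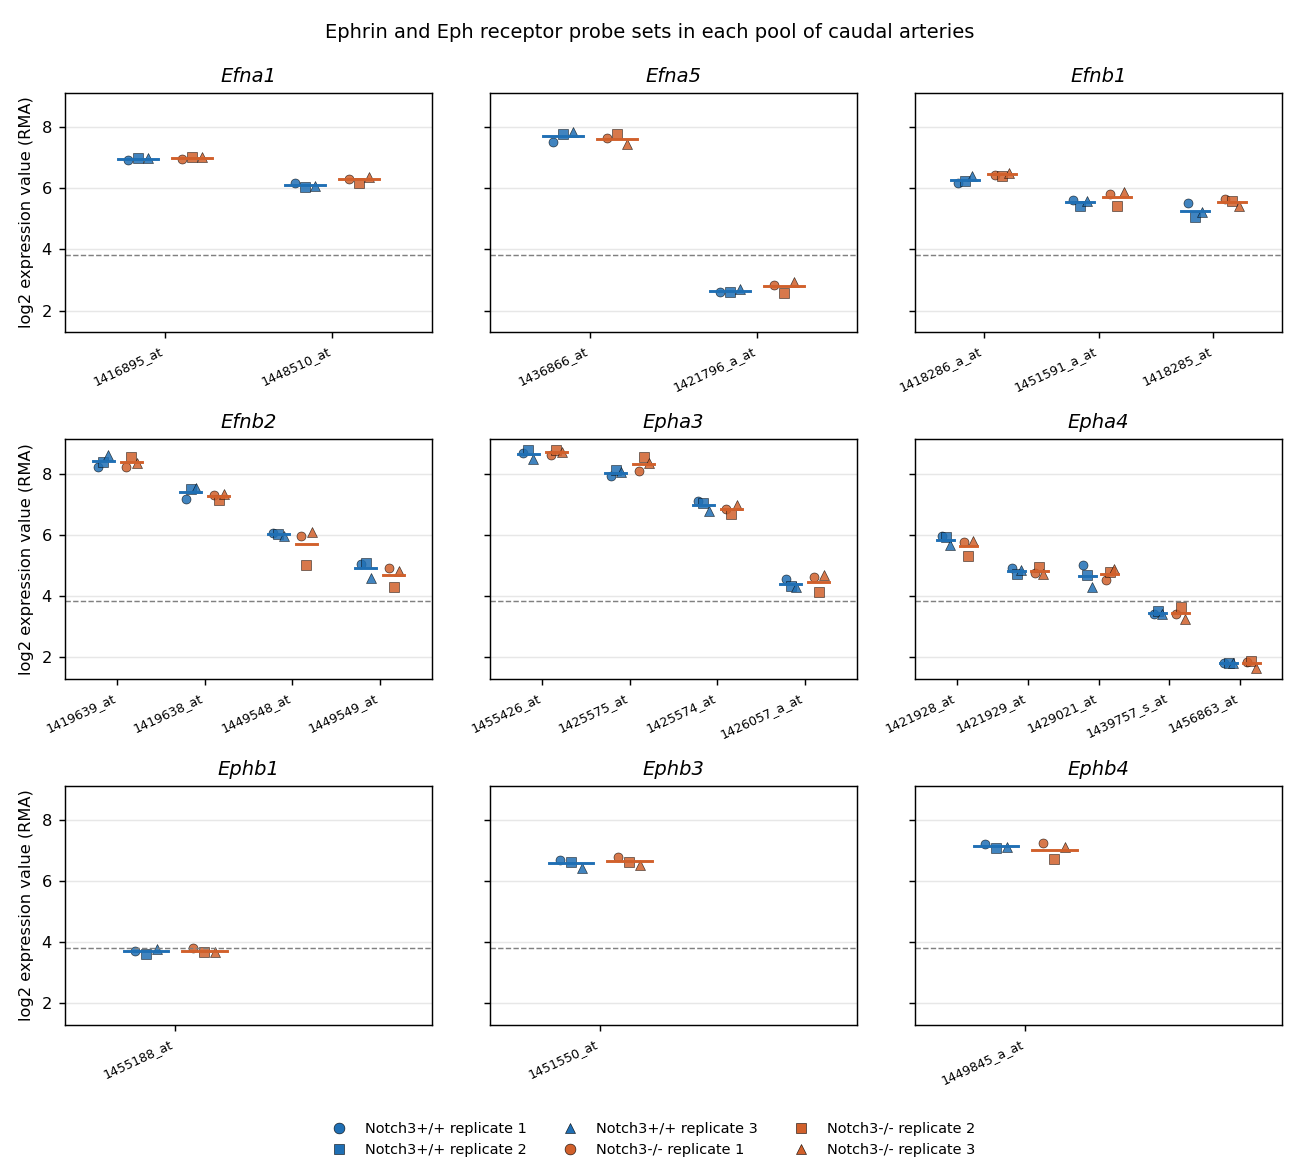
Log2 expression values of the 23 ephrin and Eph receptor probe sets, 1 panel per gene, with a point for each pool (blue Notch3+/+, orange Notch3-/-, symbol by replicate), a bar for each genotype mean and a dashed line at the filter level of 3.83. The genotypes overlap on every tested probe set but 1 of Efna1, and Notch3-/- replicate 2 (orange squares) sits low on the 2 dimmest Efnb2 probe sets and on Ephb4.

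**Figure D2:**
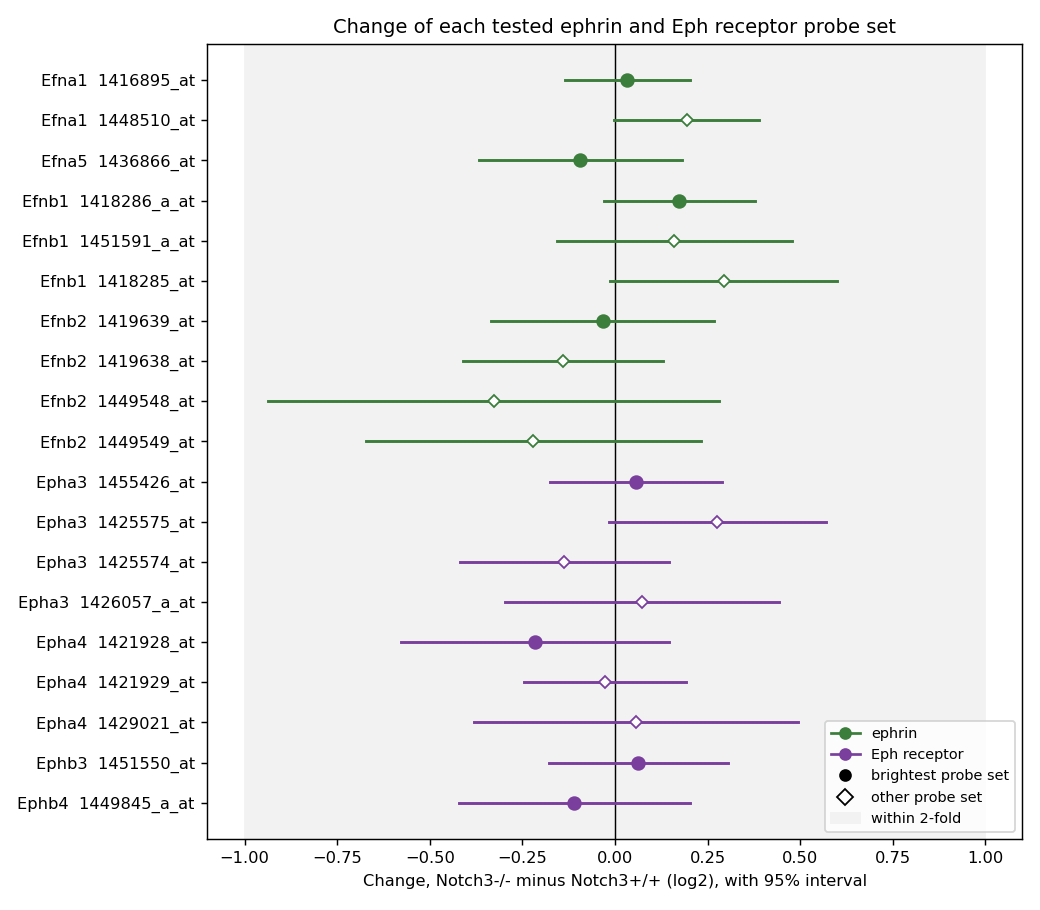
Change of each of the 19 tested member probe sets (log2, Notch3-/- minus Notch3+/+) with its 95% interval from limma, ephrins in green and Eph receptors in purple. Every interval includes 0 and lies inside the grey band of 2-fold either way.

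On the arterial side, Efnb2, the gene of ephrin-B2, had 4 tested probe sets. The brightest, 1419639_at, read 8.21, 8.40 and 8.63 in Notch3+/+ replicates 1 to 3 and 8.24, 8.54 and 8.36 in Notch3-/- replicates 1 to 3. The Notch3-/- pools lay inside the Notch3+/+ range. Means were 8.41 ± 0.21 and 8.38 ± 0.15 (SD, n = 3), a change of -0.03 (SE 0.13, adjusted p = 0.938), and the 95% interval of the fold was 0.793 to 1.20. The second, 1419638_at, read 7.19, 7.49 and 7.53 in Notch3+/+ and 7.31, 7.13 and 7.35 in Notch3-/- pools, with a change of -0.14 (SE 0.12, adjusted p = 0.666). Here too the groups overlapped, and the change was -0.25 when Notch3+/+ replicate 1 was left out and -0.07 when Notch3-/- replicate 2 was.

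The remaining Efnb2 probe sets were dimmer, and their changes moved with which pool was left out. On 1449548_at the Notch3+/+ pools read 6.07, 6.02 and 5.97, and the Notch3-/- pools 5.97, 5.01 and 6.10. Notch3-/- replicate 2 lay about 1 unit below every other pool, while the other Notch3-/- pools fell within 0.03 of the Notch3+/+ range. The change was -0.33 (SE 0.26, adjusted p = 0.659) with all pools and 0.02 (SE 0.08) without Notch3-/- replicate 2. On 1449549_at the pools read 5.05, 5.07 and 4.60 in Notch3+/+ and 4.93, 4.30 and 4.83 in Notch3-/- arteries, and the change was -0.22 with all pools and -0.03 without the same pool. All 4 Efnb2 changes were below 0 with all pools and none passed, and that of the brightest probe set ran from -0.14 to 0.075 with 1 pool left out. The 4 probe sets did not follow one another over the 6 pools, with correlations between -0.76 and 0.84, given as a description.

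On the venous side, Ephb4, the receptor gene whose product binds ephrin-B2, had a single probe set. It read 7.21, 7.09 and 7.14 in Notch3+/+ and 7.25, 6.74 and 7.12 in Notch3-/- pools. Notch3-/- replicate 1 was the highest pool and Notch3-/- replicate 2 the lowest, so the groups overlapped. Means were 7.15 ± 0.06 and 7.04 ± 0.27 (SD, n = 3), a change of -0.11 (SE 0.13, adjusted p = 0.770), and the 95% interval of the fold ran from 0.747 to 1.15. Without Notch3-/- replicate 2 the change was 0.04 (SE 0.08).

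Read per pool and centred on the mean of the 6 pools, the log2 ratio of the brightest Efnb2 probe set to Ephb4 spanned -0.31 to 0.19 over the Notch3+/+ pools and -0.32 to 0.50 over those lacking Notch3, with Notch3-/- replicate 2 highest. The genotype means of this ratio differed by 0.08 and its ranges overlapped. On the other Efnb2 probe sets the difference had the opposite sign, at -0.03 for 1419638_at, -0.22 for 1449548_at and -0.11 for 1449549_at, and on 1449548_at Notch3-/- replicate 2 was the lowest pool. These differences were not tested.

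Markers of the cells that carry this pair were read beside it. Of 12 endothelial markers, all above the filter, 9 were lower and 3 higher in Notch3-/- arteries, with a median of -0.24, 4 at an unadjusted p under 0.05 and 0 called in limma, beside 11.9% and 0.322% of all genes tested by their brightest probe set. Their summed level on the linear scale was 5422 to 6512 for the Notch3+/+ pools and lower, 4600.2 to 5191, for the Notch3-/- pools. Smooth muscle markers had a median of -0.01 over 8 genes, with sums of 25264 to 29461 and 27672 to 28277. Of these 8 genes 0 were called in limma and 3 had an unadjusted p under 0.05, in both directions, namely Cnn1 (0.51, adjusted p = 0.138), Myocd (-0.39, adjusted p = 0.265) and Smtn (-0.58, adjusted p = 0.318). Of 7 pericyte markers 0 were called and 4 had an unadjusted p under 0.05, with Pdgfrb (0.42, adjusted p = 0.138), Abcc9 (0.44, adjusted p = 0.232) and Kcnj8 (0.35, adjusted p = 0.409) higher and Cspg4 (-0.42, adjusted p = 0.338) lower. These genes were named after their values were seen. In bulk arteries, fewer cells of a type and less RNA per cell cannot be told apart, and the part of these markers in the Efnb2 and Ephb4 values was not tested.

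Efnb1, the gene of ephrin-B1, lies on chromosome X and was higher in mean on each of its 3 probe sets, without passing. The brightest, 1418286_a_at, read 6.19, 6.25 and 6.42 in Notch3+/+ and 6.45, 6.42 and 6.51 in Notch3-/- pools. The groups met at 6.42. Its change was 0.17 (SE 0.09, adjusted p = 0.510). The dimmest, 1418285_at, read 5.51, 5.05 and 5.22 against 5.65, 5.60 and 5.41, overlapping by 1 pool on each side, with the highest change among the members (0.29, SE 0.13, adjusted p = 0.463). On 1451591_a_at the pools read 5.61, 5.44 and 5.60 against 5.83, 5.41 and 5.89, so that Notch3-/- replicate 2 was the lowest of all and the other Notch3-/- pools the highest. Its change was 0.16 (adjusted p = 0.675), and 0.31 (adjusted p = 0.349) without Notch3-/- replicate 2.

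**Figure D3:**
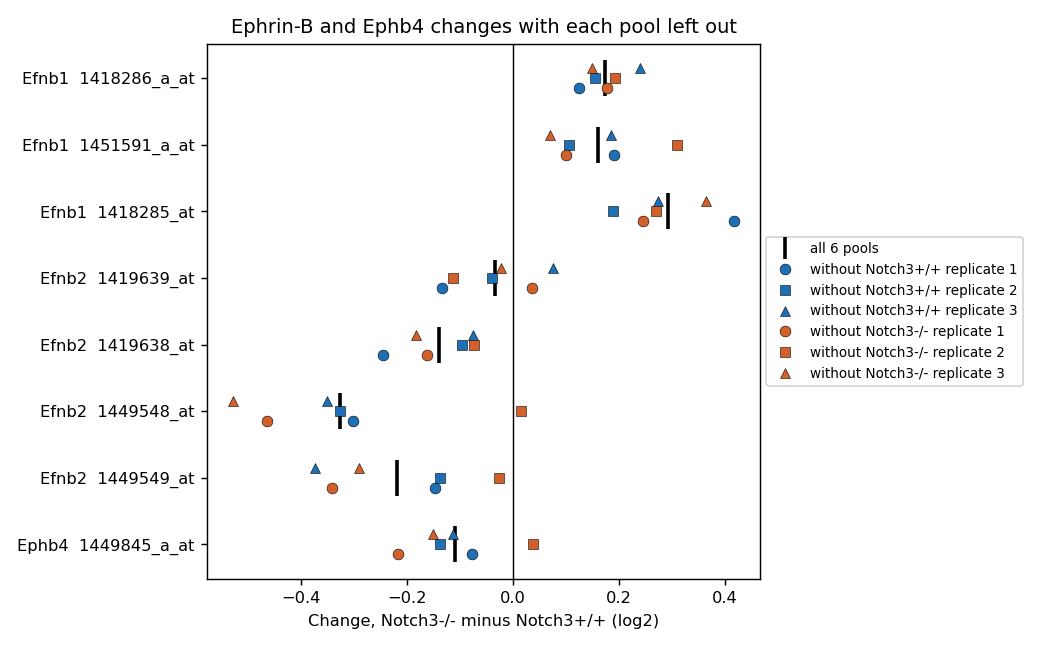
Change of the Efnb1, Efnb2 and Ephb4 probe sets (log2) with all 6 pools (black bar) and with each pool left out in turn (coloured symbols). The 3 Efnb1 probe sets stay above 0 throughout, while the change of Efnb2 probe set 1449548_at moves from -0.33 to 0.02 and that of Ephb4 from -0.11 to 0.04 without Notch3-/- replicate 2.

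Among the lipid-anchored ligands, Efna1, the gene of ephrin-A1, which is induced in endothelium by inflammatory cytokines, gave the single probe set on which the genotypes did not overlap. On 1448510_at the Notch3+/+ pools read 6.17, 6.05 and 6.09 and the Notch3-/- pools 6.32, 6.19 and 6.38. The gap between the groups was 6.17 against 6.19, and the change of 0.19 (SE 0.08) had an adjusted p of 0.450. The brighter Efna1 probe set, 1416895_at, read 6.93, 7.01 and 6.99 against 6.97, 7.03 and 7.03. Its groups overlapped, with a change of 0.03 (SE 0.07, adjusted p = 0.882). Its spread over the pools was the narrowest among the members. Efna5, the gene of ephrin-A5, a guidance cue for growing axons, read 7.53, 7.80 and 7.84 in Notch3+/+ and 7.65, 7.77 and 7.47 in Notch3-/- pools on its tested probe set. Its groups overlapped, with a change of -0.09 (SE 0.12, adjusted p = 0.779). It was -0.19 when Notch3+/+ replicate 1 was left out and -0.01 when Notch3-/- replicate 3 was. The other Efna5 probe set lay below the filter in every pool, at 2.57 to 2.95.

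Epha3, a receptor for ephrin-A ligands that is common in mesenchymal cells, had 4 tested probe sets that differed in sign. The brightest, 1455426_at, read 8.68, 8.78 and 8.49 in Notch3+/+ and 8.61, 8.78 and 8.73 in Notch3-/- pools, a change of 0.06 (SE 0.10, adjusted p = 0.850). On 1425575_at the values were 7.94, 8.12 and 8.07 against 8.08, 8.54 and 8.34, with Notch3-/- replicate 2 highest and Notch3-/- replicate 1 inside the Notch3+/+ range. The change there was 0.28 (SE 0.13, adjusted p = 0.469), 0.17 without Notch3-/- replicate 2 and 0.40 (adjusted p = 0.223) without Notch3-/- replicate 1. The other 2 had changes of -0.14 (SE 0.12) and 0.07 (SE 0.16), which were -0.06 and 0.25 without Notch3-/- replicate 2. The groups overlapped on all 4.

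Epha4, which binds ligands of both classes, had 3 tested probe sets, again of both signs. On the brightest, 1421928_at, the Notch3+/+ pools read 5.96, 5.92 and 5.66 and the Notch3-/- pools 5.78, 5.30 and 5.81. Notch3-/- replicate 2 was the lowest pool and the others overlapped. The change was -0.22 (SE 0.15, adjusted p = 0.626), and -0.05 (SE 0.11) without Notch3-/- replicate 2. The other 2 tested probe sets had changes of -0.03 (SE 0.09) and 0.06 (SE 0.19), and each took both signs over the fits with 1 pool left out. The last 2 Epha4 probe sets were below the filter, at 3.23 to 3.65 and 1.65 to 1.87.

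Of the other EphB receptors, Ephb3 read 6.70, 6.62 and 6.45 in Notch3+/+ and 6.79, 6.64 and 6.53 in Notch3-/- pools, with overlapping groups and a change of 0.06 (SE 0.10, adjusted p = 0.838). Ephb1 lay just under the filter, at 3.62 to 3.80 over the 6 pools. Its change in a fit without the filter was 0.02 (adjusted p = 0.937), and the 3 filtered probe sets of Efna5 and Epha4 had changes of -0.01 to 0.14 in that fit. Over the 19 tested member probe sets, Notch3-/- replicate 2 was the single lowest pool in 8 and the single highest in 2, beside 28.3% and 25.8% of all tested probe sets.

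**Figure D4:**
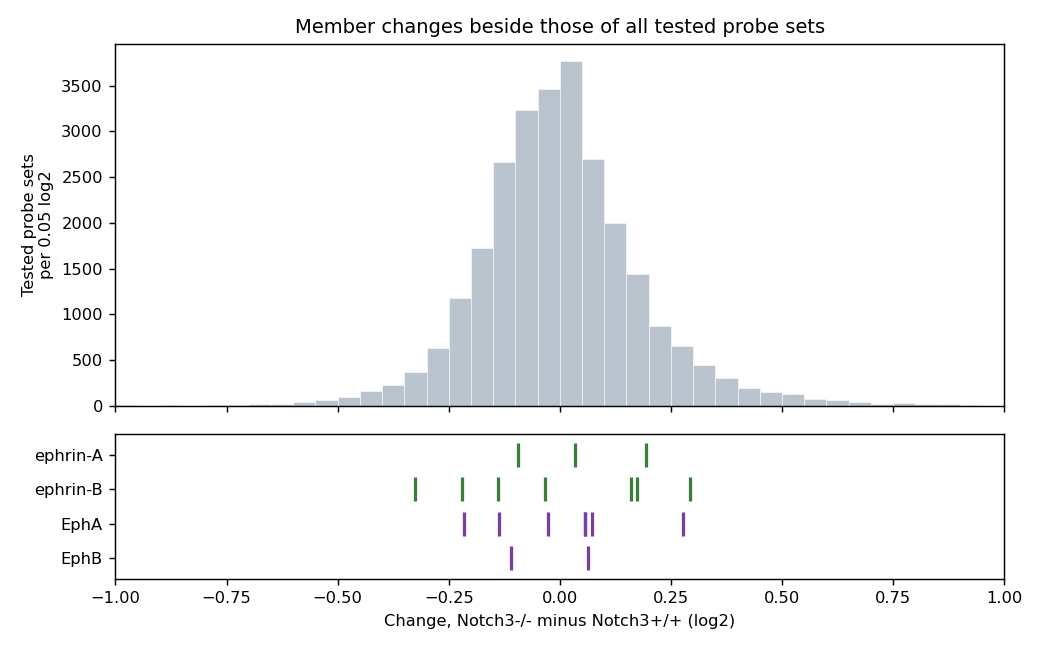
Upper panel, number of tested probe sets in each 0.05 step of log2 change between -1 and 1 (75 of 27027 lie outside); lower panel, each tested member probe set as a tick, by class. The member ticks fall between -0.33 and 0.29, in the body of the distribution.

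The rest of the family was mostly dim. The 12 other ephrin and Eph receptor genes had 22 probe sets, of which 8 from 7 genes passed the filter. Of these 8, 0 were called and 0 had an unadjusted p under 0.05 in limma, beside 0.252% and 11.4% of all tested probe sets. Their changes ran from -0.11 to 0.21. Epha2, a receptor of epithelium and endothelium, was the brightest at 6.0 to 6.30 with Notch3 and 6.09 to 6.18 without it (change 0.03, adjusted p = 0.936). The widest change was that of Efna2 probe set 1444606_at (0.21, adjusted p = 0.562), on which Notch3-/- replicate 2 was the highest pool at 5.58. The other tested Efna2 probe set, 1417521_at, went the opposite way (-0.10, adjusted p = 0.698).

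Genes that act beside the family were read from lists by role, each by its brightest probe set. Of 20 genes linked to forward signalling by Eph receptors, 0 passed in limma and 1 had an unadjusted p under 0.05. Of all tested genes 11.9% had such a p and 0.322% passed, to be read beside each of these lists. In mean 16 of the 20 were higher, 3 lower and 1 equal, with a median of 0.07, beside 0.00 for all tested genes. Kalrn, which encodes a guanine nucleotide exchange factor, read 5.85, 5.90 and 5.92 in Notch3+/+ and 6.03, 6.31 and 6.50 in Notch3-/- pools. All Notch3-/- pools were the higher ones, and the change of 0.39 had an adjusted p of 0.318. The Eph-binding adaptor gene Anks1 (0.17, adjusted p = 0.443) and the phosphatase gene Ptpro (0.35, adjusted p = 0.511) followed.

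Of 11 tested genes linked to reverse signalling by ephrin-B, Grip2 fell and the other 10 did not pass (median of the list 0.05, 2 at an unadjusted p under 0.05). Grip2 encodes a multi-PDZ scaffold, and Grip proteins can bind the tail of ephrin-B ligands. It read 7.05, 7.11 and 7.26 in Notch3+/+ and 5.92, 5.78 and 6.0 in Notch3-/- pools, well apart. The fall was 1.24 on the log2 scale, between means of 7.14 ± 0.11 and 5.90 ± 0.11 (SD, n = 3; adjusted p = 0.00380). Without Notch3+/+ replicate 2 its adjusted p was 0.0506. Its relative Grip1 lay below the filter, at 3.03 to 3.29. The kinase gene Yes1 read 0.35 (adjusted p = 0.438) and Stat3, reported downstream of ephrin-B, read -0.28 (adjusted p = 0.509). Stat3 levels were 9.10, 8.61 and 9.08 in Notch3-/- replicates 1 to 3, lowest in replicate 2, against 9.11 to 9.28 in Notch3+/+ pools.

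Among 8 tested genes whose products cut ephrins or Eph receptors, 0 passed in limma and 1 had an unadjusted p under 0.05 (median 0.11). Adam10, which sheds ephrin-A, read 8.96, 9.02 and 8.99 in Notch3+/+ and 9.14, 9.18 and 9.15 in Notch3-/- pools. Its groups did not overlap, yet the change of 0.17 had an adjusted p of 0.437. The rhomboid protease gene Rhbdl2 read -0.23 (adjusted p = 0.450) and the gelatinase gene Mmp2 0.25 (adjusted p = 0.521).

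**Figure D5:**
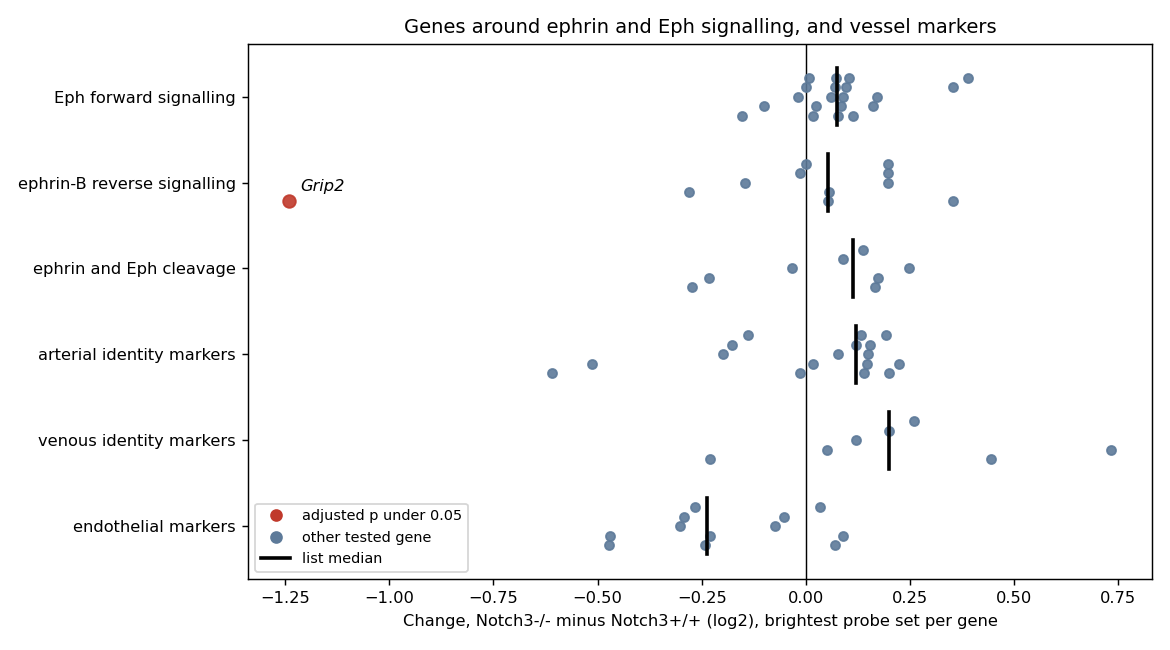
Change of each tested gene (log2, brightest probe set) in 6 lists, with the list median as a black bar and genes with an adjusted p under 0.05 in red. Grip2, at -1.24, is the single red point, and the endothelial median of -0.24 is the lowest of the list medians.

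Other genes of arterial or venous identity were read beside the pair. Of 17 arterial genes other than Efnb2, 11 were higher and 6 lower (median 0.12), 2 had an unadjusted p under 0.05 and 0 were called in limma. Over all genes tested by their brightest probe set these shares were 11.9% and 0.322%, to be read beside the arterial and the venous list. The connexin gene Gja4 read 8.34, 8.51 and 8.78 against 8.17, 7.98 and 7.94, all Notch3-/- pools being lower, with a change of -0.51 and an adjusted p of 0.230. The values were 0.20 for the co-receptor gene Nrp1 (adjusted p = 0.387) and 0.22 for Hey1 (adjusted p = 0.442). Of 7 venous genes other than Ephb4, 6 were higher (median 0.20), 1 had an unadjusted p under 0.05 and 0 were called by their brightest probe set. That gene was Nrp2, a co-receptor of veins and lymphatics, at 7.17, 7.08 and 7.11 in Notch3+/+ and 7.66, 7.49 and 7.54 in Notch3-/- pools (0.44, adjusted p = 0.114). Another Nrp2 probe set rose by 0.81 (adjusted p = 0.0348), and its adjusted p was between 0.0354 and 0.253 with 1 pool left out, and the call was lost except without Notch3+/+ replicate 1. Nr2f2 (-0.23, adjusted p = 0.503) and Ackr1 (0.26, adjusted p = 0.540) did not pass.

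Markers of other cells in a dissected artery are given because Eph genes are shared by many of them. In Notch3-/- arteries all 9 macrophage and leukocyte markers and all 7 mast cell markers were higher in mean, with medians of 0.54 and 0.76, and 8 of 9 fibroblast markers were higher (median 0.15). On every leukocyte and mast cell marker Notch3+/+ replicate 3 was the lowest pool, tied on Ms4a2. Notch3+/+ replicate 1 read above Notch3-/- replicate 2 on some of them, such as Cpa3 and C1qb, and below it on others. Summed levels ran from 1265 to 2039 against 2054 to 2593 for leukocytes, from 827 to 1794 against 1456 to 2488 for mast cells and from 35112 to 37132 against 36844 to 39556 for fibroblasts, Notch3+/+ first. Schwann cell and nerve markers were lower in 5 of 6 (median -0.20), skeletal muscle markers in 7 of 7 (median -0.23) and adipocyte markers in 4 of 5 (median -0.11). Sums for Schwann cell and nerve markers ran from 711 to 719 against 650.3 to 674. Skeletal muscle sums ran from 1019 to 1460.2 against 657 to 1706, and adipocyte sums from 4517 to 5304 against 4412 to 5122. On every tested skeletal muscle marker Notch3-/- replicate 2 was the lowest pool, and Notch3-/- replicate 3 was the highest on all but Pvalb. Keratinocyte markers were higher in 4 of 4 (median 0.18, sums 103 to 111 against 119.9 to 136), and pericyte markers had a median of 0.04 over 7 genes (sums 8659 to 8855 against 8744 to 9112). Of all 12732 tested genes 6191 were higher in mean. An unadjusted p under 0.05 in limma was found for 5 leukocyte, 4 mast cell, 4 fibroblast, 4 pericyte and 4 Schwann cell and nerve markers. It was found for 1 skeletal muscle, 1 adipocyte and 1 keratinocyte marker, beside 11.9% of all tested genes. By their brightest probe sets 1 gene of these lists was called in limma, beside 0.322% of all tested genes. This was the fibroblast gene Dpt (0.58, adjusted p = 0.0499), which lost the call whichever pool was left out (adjusted p 0.0684 to 0.261). A dimmer probe set of the macrophage gene C1qb was also called (1.07, adjusted p = 0.0227), and lost the call except without Notch3-/- replicate 1. The part of these cells in the member values was not tested.

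Over the 6 pools, the genes most like Efnb2 by Pearson correlation were Timm44 (0.990), Apbb2 (0.984), Nab1 (0.980), Pwwp3b (0.978) and Mindy2 (0.978), out of 12731 compared. Those most like Ephb4 were Banf1 (0.998), Mdm4 (0.997), Ccr10 (0.996), Alyref (0.994) and Slc29a1 (0.993). These are descriptions over 6 points that share arrays. None of the 10 passed between the genotypes in limma, with adjusted p from 0.705 to 0.936. They were picked for following Efnb2 or Ephb4, which did not pass either, so the choice largely set this outcome.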

How the data were processed

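Values were the deposited log2 expression values per probe set of MOE430 2.0 Affymetrix arrays, 1 per RNA pool, which came from RMA, per the submitters' processing notes. No source used here names its version or its chip definition. The file held 45101 probe sets, of which 64 controls were left out. The platform annotation gave 34945 probe sets 1 gene symbol, 932 several and 9160 none. RefSeq (GRCm38.p6) updated symbols by gene number for 34741. Probe sets with a mean below the 40th percentile (3.83) were left out. Genotypes were compared with limma 3.58.1 in R 4.3.3 (lmFit, eBayes, genotype as the only term), two-sided, with Benjamini-Hochberg adjustment over 27027 probe sets and a threshold of 0.05. The fit was tested on simulated data.

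A gene in a list was represented by its probe set with the highest mean. All members were named, with up to 3 genes per other list by smallest unadjusted p, called genes, and the 5 genes most correlated with Efnb2 and with Ephb4. Markers of other cell types were summarised, and Grip1, Epha2, Efna2, Acta2, Tagln and Myh11 were named after their values were seen. Members and lists were chosen with earlier results of these data known. No scanner files or detection calls were used, and the number of arrays limits the precision. The settings varied were the filter, the variance model, normalization, weights, replicate block, probe set choice and each pool left out.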

Additional observations from a re-analysis of the deposited data

How the results depend on the processing

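The counts of called ephrin and Eph receptor probe sets and genes were 0 under every setting in which each was computed: no filter, filters at the 20th and 60th percentile, an intensity trend with robust eBayes, a further quantile normalization, median centring, both kinds of weights, both replicate blocks, the 2 other ways of representing a gene (genes only) and each pool left out. Over all probe sets the count of calls was 68, 978 with array weights, 13 without Notch3+/+ replicate 2 and 0 with the block by description number. The Efnb2 change ran from -0.14 to 0.075 with 1 pool left out and turned sign without Notch3+/+ replicate 3 or Notch3-/- replicate 1. The Ephb4 change ran from -0.22 to 0.038, turned sign without Notch3-/- replicate 2, and read 0.01 with the replicate block by description number. Other members that turned sign were Efna5 as a mean of its probe sets (0.022), Epha4 by its most variable probe set (0.057) and Ephb3 with array weights (-0.024). With 1 pool left out, Epha3 ran from -0.023 to 0.12 and Ephb3 from -0.0067 to 0.12. None of these values passed. The Efna5 mean took in its probe set below the filter, whose change was 0.14, and the Epha4 value was that of 1429021_at. Apart from these choices of probe set and fewer samples, the cause was not tested. For pools with the same replicate number in their titles, deviations from the genotype means correlated at 0.24, 0.05 and -0.07. For pools with different numbers the correlations ran from -0.17 to 0.14. These values cannot settle whether the title number pairs the pools. With that number as a block, Efnb2 read -0.03 and Ephb4 -0.11, and 57 probe sets were called in all. The fit with the description numbers as a block rests on 2 shared numbers. It called 0 probe sets in limma (1829 at an unadjusted p under 0.05), and Notch3 itself did not pass (adjusted p = 0.733), so the 0 among the members says nothing there. Efnb2 read -0.12 and Epha4 -0.015 in it. At an unadjusted p under 0.05 in limma, 2 of the 19 tested member probe sets were found with the title block and 1 with the description block. Over all 27027 probe sets the counts were 3190 and 1829.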
